A study of Mus musculus with 32 samples.

Results

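ATP-binding cassette (ABC) transporter genes were taken as every protein-coding gene whose symbol begins with Abc, a subfamily letter from A to G and a number, in any of the 4 organ tables. The GENCODE M21 annotation lists 50 such genes, and 27 of them were among the 10055 genes that the tables of liver, duodenum, jejunum and ileum held together. All libraries came from male mice, either knocked out for Khk (Khk KO) or wild type (WT). The labels give no treatment, strain, age or allele beyond that. Khk encodes ketohexokinase, which phosphorylates fructose. The 32 libraries of polyadenylated RNA form 8 groups of 4, one per organ and genotype, and the study set out to learn how fructose and ketohexokinase act on iron homeostasis. A gene entered its organ's table only if the authors' comparison of the genotypes gave it an unadjusted p under 0.05. A member in a table was therefore selected for a genotype difference in that organ, and the 23 members in no table are not analysed here.

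ABC transporters couple ATP hydrolysis to the movement of a substrate across a membrane. In the liver and gut they export bile constituents, sterols, phospholipids, drugs and conjugated waste, several of them from the apical or canalicular face of polarised cells. Members of subfamilies E and F have no membrane domain and act on ribosomes and translation, and ABCC8 and ABCC9 are regulatory subunits of potassium channels. Tap1, Tap2 and Cftr belong to the same family under other symbols and were followed separately.

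The 7 subfamilies were unevenly held by the tables. Of subfamily A, 11 of 16 annotated members were in at least 1 table, against 3 of 10 in B, 7 of 10 in C, 0 of 4 in D, 1 of 1 in E, 3 of 3 in F and 2 of 6 in G. The subfamily D genes, which encode importers of fatty acids into peroxisomes and their relatives, were thus in no table. There were 21 members in the table of liver, 12 in that of ileum, 3 in that of jejunum and 1 in that of duodenum. Expressed as a share of annotated genes, the liver table held 42.0% of the ABC members and 24.8% of all protein-coding genes. For the ileum the shares were 24.0% and 20.4%, for the jejunum 6.0% and 8.75%, and for the duodenum 2.0% and 5.8%. ABC genes are long, with a median exon length of 6330.5 bases against 3498 for all protein-coding genes. Within the middle range of ABC lengths, 5335 to 8137 bases, the tables held 30.4% of 3638 protein-coding genes in liver and 22.5% in ileum.

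Gene length went with the genotype difference among the protein-coding genes that the tables held. Those genes had been selected for a genotype difference, so the values do not describe genes outside the tables. Across 5243 protein-coding genes tested in liver, the log2 fold change and the gene length had a Spearman's rho of 0.736, given as a description because the genes share libraries. In ileum rho was 0.724 across 4364 genes, in jejunum 0.631 across 1817 and in duodenum 0.535 across 1203. The median log2 fold change in liver was -0.66 for genes of at most 2435 bases and 0.84 for genes of at least 8018 bases. The libraries themselves showed the trend. In liver the fitted deviation of genes of 11842 bases minus that of genes of 1489 bases was 0.674 to 0.846 on the log2 scale in the 4 Khk KO libraries. In the WT libraries it was 0.093, -0.877, -1.501 and -0.736 for replicates 1 to 4, so that WT replicate 1 was nearest to Khk KO and WT replicate 3 farthest. In the 3 gut segments WT replicate 1 had the lowest value of its organ, -1.159 in duodenum, -1.303 in jejunum and -1.098 in ileum. Members are therefore set beside the 200 protein-coding genes of the same table nearest to them in length, and beside a fit in which each library's trend with length was taken out. That fit also removes any genotype effect that follows length.

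The reads of table genes came to between 7505439 and 14331517 per liver library, 1722220 and 3549978 in duodenum, 3053896 and 4325568 in jejunum, and 6531593 and 9149003 in ileum. Nothing in the labels says that replicates came from separate mice, so p-values measure only the spread between these libraries. Khk itself was lower in each Khk KO library than in each WT library in all 4 organs, at 743 to 1000.3 against 5784 to 11769 normalised counts in liver and 83.8 to 122 against 1174 to 2617 in ileum. In this bulk tissue RNA, fewer cells of a type and less RNA per cell cannot be told apart. Of the 6 hepatocyte markers chosen, Apoa1, Cps1, Serpina1a and Ttr were in the liver table, and their summed level was 268000 to 289000 normalised counts in Khk KO and 296000 to 438000 in WT. The sum covers opposite directions, since Apoa1, Ttr and Serpina1a fell and Cps1 had a log2 difference of 0.36 that did not pass, and 0 of the 4 were called after removal of the length trend. The ileal enterocyte markers Fabp6, Slc10a2 and Fgf15 were not in the ileum table, so the ileum label was not checked by them.

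In liver, the ABC transporter genes that the table held were mostly higher in Khk KO. The edgeR quasi-likelihood test, with Benjamini-Hochberg adjustment over 18225 genes as in the authors' test, called 13 of the 21 members higher and 0 lower at 0.05. At the same threshold 14.7% of all liver genes were called, 7.19% higher and 7.49% lower. The members had already been selected by the table, and of the table's own 6375 genes edgeR called 42%, 20.5% higher, against 61.9% of the 21 members. By the adjusted p of the authors' deposited table, higher levels were called for 15 members and lower levels for 1, against 12.5% and 11.4% of all liver genes, 23.9% together. Taken over annotated genes, that table called 32% of the ABC genes, 17.6% of all protein-coding genes and 19.6% of those in the ABC length range. The genotypes did not overlap for 14 of the 21 members, 13 higher and 1 lower, where 65.0% of the table's genes did not overlap, 34.3% higher and 30.7% lower. The median log2 fold change of the 20 tested members was 0.80, against -0.25 for all 5243 protein-coding genes tested in the table. The medians of the members' length neighbours had a median of 0.61. Of these members, 11 of the 20 lay above the upper quartile of their neighbours and 0 below the lower quartile.

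**Figure D1:**
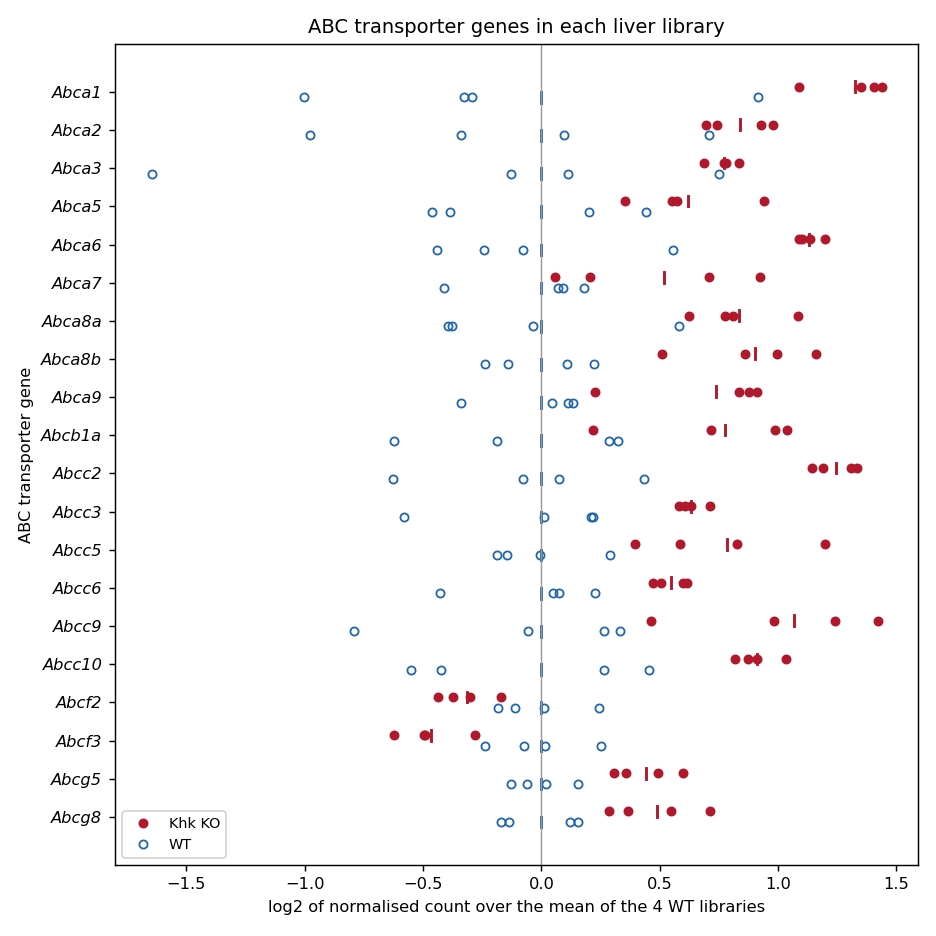
Normalised counts of 20 ABC transporter genes in each liver library, as log2 of the count over the mean of the 4 WT libraries (horizontal axis), with one line per gene. Filled red points are the 4 Khk KO libraries, open blue points the 4 WT libraries, and short bars the group means; 13 of these genes lie wholly to the right of their WT points, while for Abcf3 all Khk KO points lie to the left.

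The canalicular exporters came out with 1 of 3 members in the liver table. Abcc2 (ENSMUSG00000025194, chromosome 19) encodes MRP2, which pumps conjugated bilirubin and glutathione conjugates into bile. Its normalised counts in liver were 17789, 20327, 18373 and 19966.5 in Khk KO replicates 1 to 4 and 10887, 7635, 5219 and 8498 in WT replicates 1 to 4. Every Khk KO library exceeded every WT library, and WT replicate 3 was the lowest. Abcc2 rose by 1.27 ± 0.20 (SE) on the log2 scale (edgeR adjusted p = 0.0151), where its neighbours in length had a median of 0.79 and quartiles of 0.57 and 0.99. It was still higher after removal of the length trend, by 0.60 ± 0.10 (SE) with an adjusted p of 0.0125. Abcb11 and Abcb4, which encode the bile salt pump and the phosphatidylcholine floppase of the same membrane, were in no table.

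Abcc2 is one of the members called by the authors' deposited tables in liver, jejunum and ileum, and the bases before its start are shown because of that. RefSeq on GRCm38.p6 places them at chr19:43782058-43782307 on the plus strand, and its start lies 116 bases downstream of the gene start given in the tables. Capitals mark the only match to the nuclear receptor motif AGGTCA on either strand, 49 bases before the start; 14% of 32851 RefSeq promoter windows of that length hold one. The searches for the E-box CACGTG, the GC box GGGCGG and the direct repeat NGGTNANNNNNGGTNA found no match in these 250 bases.
Abcc2: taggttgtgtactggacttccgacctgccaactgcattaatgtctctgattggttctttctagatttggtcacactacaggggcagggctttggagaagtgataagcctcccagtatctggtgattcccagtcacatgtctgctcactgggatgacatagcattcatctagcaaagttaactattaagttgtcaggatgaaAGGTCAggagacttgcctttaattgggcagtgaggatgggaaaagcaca

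Sterol and phospholipid exporters had 4 of 6 members in the liver table, and 3 of them rose. Abca1, which hands cholesterol and phospholipid to apolipoprotein A-I to form HDL, had 4019, 4277, 4177 and 3352 normalised counts in Khk KO and 2976, 1259, 788 and 1289 in WT. The genotypes did not overlap, and WT replicate 1 stood well above the other 3 WT libraries. Abca1 rose by 1.34 ± 0.34 (SE, log2; edgeR adjusted p = 0.0290), against a median of 0.81 for its neighbours in length. After removal of the length trend the value was 0.65 ± 0.19 (SE) and the adjusted p 0.0844.

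The bases before the start of Abca1 lie at chr4:53159896-53160145 on the minus strand (RefSeq, GRCm38.p6) and are printed 5′ to 3′ along the gene. Capitals mark, in order, the GC box GGGCGG, the E-box CACGTG, a further GC box, and one match, on the opposite strand, to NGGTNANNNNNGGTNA, a loosely written nuclear receptor motif in direct repeat with 4 bases between the copies. That repeat ends the printed capitals as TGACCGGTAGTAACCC and begins 67 bases before the start; 0.621% of promoter windows hold such a repeat, 32.7% a GC box and 6.02% an E-box. A match is only a match of letters.
Abca1: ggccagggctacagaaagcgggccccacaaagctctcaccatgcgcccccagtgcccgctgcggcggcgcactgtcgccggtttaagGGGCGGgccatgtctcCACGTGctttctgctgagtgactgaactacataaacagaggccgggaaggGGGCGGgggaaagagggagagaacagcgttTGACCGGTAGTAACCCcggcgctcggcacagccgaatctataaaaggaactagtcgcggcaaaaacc

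Abcg5 and Abcg8 encode the paired subunits of the transporter that secretes sterols into bile and gut lumen. Abcg5 had 1838, 2092, 2254 and 1905 normalised counts in Khk KO and 1427, 1654, 1506 and 1359.9 in WT. Abcg8 had 2296, 2599, 2914 and 2171 in Khk KO and 1937, 1984, 1583 and 1617 in WT. For both genes each Khk KO library was above each WT library. Abcg5 rose by 0.47 ± 0.13 (SE, log2; edgeR adjusted p = 0.0337), and Abcg8 rose by 0.51 ± 0.14 (SE, log2; adjusted p = 0.0392).

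Abcg5 and Abcg8 went against the direction of genes of their length. At 2712 and 3749 bases they are short for the family, and the 200 genes nearest in length had medians of -0.57 for Abcg5 and -0.43 for Abcg8. After removal of the length trend, Abcg5 was higher by 0.90 ± 0.11 (SE, adjusted p = 0.00506) and Abcg8 by 0.69 ± 0.13 (SE, adjusted p = 0.0188). The difference of each from the neighbours' median, 1.04 and 0.95, was larger than that of each of the other 18 tested liver members.

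The pair is divergent, and the stretch that separates the starts is short. RefSeq on GRCm38.p6 places 109 bases between them at chr17:84683012-84683120, printed on the strand of Abcg8, with Abcg5 leading away to the left. None of the 4 motifs matched on either strand; of promoter windows cut to the same length, 6.39% hold AGGTCA and 0.219% the direct repeat. The gene model of Abcg8 in the tables begins farther upstream, at 84676302, inside the span of Abcg5, and the tables do not say whether reads were assigned by strand.
Abcg5-Abcg8: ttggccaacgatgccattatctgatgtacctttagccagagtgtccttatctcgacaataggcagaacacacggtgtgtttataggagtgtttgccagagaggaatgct

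The remaining member of the group, Abca7, which moves phospholipids, had 222, 122, 134 and 191 normalised counts in Khk KO and 132, 124, 87.7 and 122 in WT. These values overlapped, and its log2 difference of 0.55 ± 0.24 (SE) did not pass the test (edgeR adjusted p = 0.158). Abcg1 and Abcg4 were in no table.

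Organic anion and drug exporters had 5 of 12 members in the liver table, and 4 of them rose. Abcc3 encodes MRP3, which returns glucuronides to the blood across the basolateral membrane. It had 8186, 8475, 8957 and 8328 normalised counts in Khk KO and 6333, 5514, 3663 and 6367 in WT. Abcc6, whose product releases ATP from hepatocytes and so supplies pyrophosphate to the circulation, had 4048, 4415, 4472 and 4135 in Khk KO and 3409, 3075, 2169 and 3015 in WT. In both genes the genotypes were separate and WT replicate 3 was lowest. Abcc3 rose by 0.66 ± 0.17 (SE, log2; adjusted p = 0.0316) and Abcc6 by 0.57 ± 0.15 (SE, log2; adjusted p = 0.0330), each within 0.1 of the median of its neighbours in length, which was 0.57 for both.

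Abcc10 and Abcc5, exporters of drugs and organic anions, were far less abundant. Abcc10 had 263 to 305 normalised counts in Khk KO and 102 to 204 in WT, and rose by 0.94 ± 0.23 (SE, log2; edgeR adjusted p = 0.0270), where its neighbours in length had a median of 0.62. Abcc5 had 94.0 to 164 in Khk KO and 62.8 to 87.3 in WT, and rose by 0.81 ± 0.24 (SE, log2; adjusted p = 0.0432), close to the 0.83 of its neighbours. Abcc5 was at -0.07 ± 0.27 (SE) after removal of the length trend. Abcb1a encodes the P-glycoprotein drug pump and had 95.9, 169.7, 136 and 164 normalised counts in Khk KO and 101, 72.5, 53.7 and 103 in WT. Its genotypes overlapped, and its log2 difference of 0.80 ± 0.27 (SE) was called by the authors' deposited table (adjusted p = 0.0337) but missed the threshold in edgeR (adjusted p = 0.0730). Reads of Abcb1a and its close copy Abcb1b may have been divided between them, and 10.1% of its exon length overlaps Gm42686 on the other strand.

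The largest group was the other lipid transporters of subfamily A, with 8 of 14 members in the liver table and 4 called higher. Of the 8, 5 are neighbours on chromosome 11, all on the minus strand, from Abca8b (109932190 to 109995845) through Abca8a, Abca9 and Abca6 to Abca5 (110269369 to 110337716). They form a branch of subfamily A with little settled function. Abca6 was the most abundant of them, with 5952, 5898, 6375 and 6085 normalised counts in Khk KO and 4086, 2344, 2045 and 2627 in WT. Abca8a had 3711, 2989, 3068 and 2692 in Khk KO and 2613, 1331, 1345 and 1704 in WT. Abca8b had 1267, 1563, 996 and 1394 in Khk KO and 753, 593, 633 and 816 in WT.

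In each of these 3 neighbours all Khk KO libraries were above all WT libraries, and in Abca6 and Abca8a the highest WT value was that of replicate 1. Abca6 rose by 1.15 ± 0.20 (SE, log2; edgeR adjusted p = 0.0175), Abca8b by 0.93 ± 0.17 (SE; adjusted p = 0.0183) and Abca8a by 0.86 ± 0.22 (SE; adjusted p = 0.0317). Abca9 had 131, 125, 129 and 81.8 normalised counts in Khk KO and 55.2 to 76.6 in WT, and rose by 0.76 ± 0.23 (SE; adjusted p = 0.0492). Abca5, the end of the row, had 128 to 192 normalised counts in Khk KO and 72.5 to 136 in WT, which overlap, and its 0.64 ± 0.25 (SE) did not pass (adjusted p = 0.110). Genes of like length had medians of 0.50 for Abca6, 0.64 for Abca8b, 0.58 for Abca8a, 0.76 for Abca9 and 0.78 for Abca5.

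The row came apart once the length trend was taken out. Abca6, at 5398 bases the shortest of the 5, remained higher by 0.91 ± 0.14 (SE, log2; edgeR adjusted p = 0.0129). Abca8a was at 0.45 ± 0.15 (SE; adjusted p = 0.155), Abca8b at 0.31 ± 0.15 (SE; adjusted p = 0.451), Abca9 at 0.07 ± 0.25 (SE) and Abca5, the longest at 11437 bases, at -0.20 ± 0.20 (SE). Abca8a and Abca8b are recent copies of one another, so the division of their reads is uncertain.

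Abca2 and Abca3, transporters of lipids into lysosome-related compartments, were alike in their spread. Abca3 had 1209, 1157, 1090.0 and 1164 normalised counts in Khk KO and 1140.5, 620.0, 216 and 732 in WT. Abca2 had 1048, 1192, 1238 and 1016 in Khk KO and 1024, 671, 318 and 496 in WT. In both, WT replicate 1 reached the Khk KO range and WT replicate 3 was lowest, and these were also the ends of the WT order in the length trend. Neither passed in edgeR, at 0.79 ± 0.37 (SE, log2; adjusted p = 0.194) for Abca3 and 0.86 ± 0.30 (SE; adjusted p = 0.0760) for Abca2, which the authors' deposited table called (adjusted p = 0.0151). Of Abca3, 9.8% of the exon length overlaps D330041H03Rik on the other strand. Abca14 was near the floor, with 6.71 to 22.1 normalised counts in Khk KO and 0 to 9.49 in WT, and was too low to be tested in the refit.

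Abcc9 encodes SUR2, the sulfonylurea receptor subunit of potassium channels of muscle and vessels. It had 294.5, 504, 422 and 571.5 normalised counts in Khk KO liver and 269, 206, 123 and 256 in WT. The lowest Khk KO library was just above the highest WT library, and Abcc9 rose by 1.09 ± 0.27 (SE, log2; edgeR adjusted p = 0.0281), against a median of 0.75 for its neighbours in length. It was at 0.44 ± 0.20 (SE; adjusted p = 0.422) after removal of the length trend. Endothelial markers moved with it: Kdr, Stab2 and Vwf, 3 of 5 on the list, were in the table, 2 of them rose, and their summed level was 2360 to 2490 normalised counts in Khk KO and 681 to 1860 in WT. None of the 3 was called after removal of the length trend. Of 8 fibroblast and stellate markers 4 were in the table, and edgeR called 0 of them. Pdgfrb (0.89) and Col1a1 (0.75) were above 0, and Des (-0.81) and Dcn (-0.41) below. The authors' deposited table called 1 of the 4 higher and 1 lower. Of 5 smooth muscle markers Myh11 alone was in the table, at 1.15 ± 0.57 (SE, log2; edgeR adjusted p = 0.223). The macrophage markers C1qa and Clec4f, 2 of 7 on their list in the table, fell, with a sum of 1500 to 2140 in Khk KO and 1930 to 6110 in WT. Neither was called by edgeR after removal of the length trend, at -0.38 for C1qa (adjusted p = 0.523) and -0.65 for Clec4f (adjusted p = 0.148). The part of these cells in the ABC results was not tested.

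The soluble members had lower means in Khk KO and were not called by edgeR. Abcf3 had 591, 647, 646 and 749 normalised counts in Khk KO and 772, 865, 1085 and 919 in WT, without overlap. Its log2 difference was -0.44 ± 0.14 (SE), called by the authors' deposited table (adjusted p = 0.0183) and short of the threshold in edgeR (adjusted p = 0.0621). Abcf2 had 651 to 782 in Khk KO and 776 to 1043 in WT, a log2 difference of -0.29 ± 0.14 (SE; edgeR adjusted p = 0.197). Both are short, at 3558 and 2569 bases, and genes of their length had medians of -0.45 and -0.59. Abcf2 lies 6.35 Mb from Khk on chromosome 5, Abcb8 6.52 Mb and Abcb1a 22.2 Mb, and the part of sequence linked to the Khk locus was not tested.

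**Figure D2:**
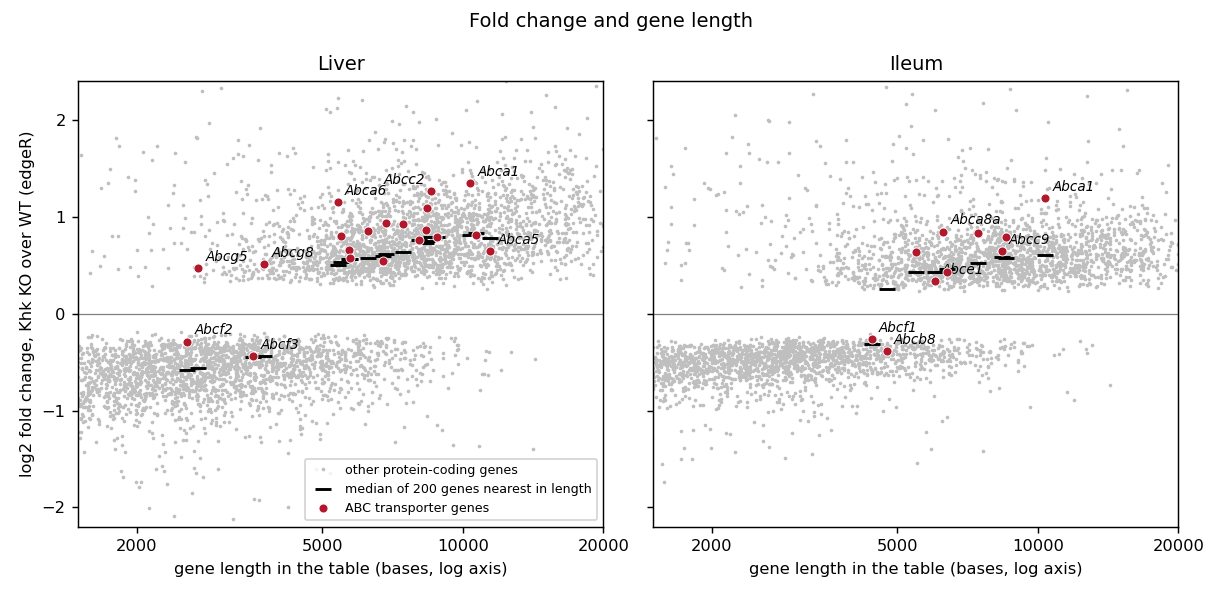
EdgeR's log2 fold change, Khk KO relative to WT (vertical axis), against gene length in the table (horizontal log axis) in liver and ileum. Red points are ABC transporter genes, grey points the other protein-coding genes of the table, and black bars the median of the 200 genes nearest in length to each member; the gap around 0 arises because the tables hold only genes with a small p-value. Abcg5 and Abcg8 sit above 0 at lengths where the bars are at -0.57 and -0.43.

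Over all liver members, taking the length trend out left 4 called higher, Abcc2, Abca6, Abcg5 and Abcg8, and 0 lower. It left 4.31% of all liver genes called, 2.17% higher and 2.14% lower. Those calls were 786 of the table's 6375 genes, 396 higher, and the members had been selected by that table. The median of the 20 members went from 0.80 to 0.33, and that of the protein-coding genes from -0.25 to -0.02. Taking out the trend with GC content in its place left 11 called higher, with Abca2 and Abca7 added and Abca8a, Abca8b, Abca9 and Abcc5 lost. That fit called 13.2% of all liver genes, 5.56% higher, which were 2414 of the table's 6375 genes, 1013 higher.

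The calls also depended on single libraries. Without Khk KO replicate 1, Khk KO replicate 2 or WT replicate 4, edgeR called 0 liver members, and without Khk KO replicate 4 it called 1, but the share of all liver genes called was then 0.258%, 0.0494%, 0.0768% and 0.626%. Without Khk KO replicate 3 or WT replicate 2 it called 3 each, with 3.78% and 2.92% of all liver genes, without WT replicate 3 it called 9, with 11.9%, and without WT replicate 1 it called 16 higher and 2 lower, with 26.7% of all liver genes. Each of the 20 log2 fold changes kept its sign in all 8 of these fits.

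**Figure D3:**
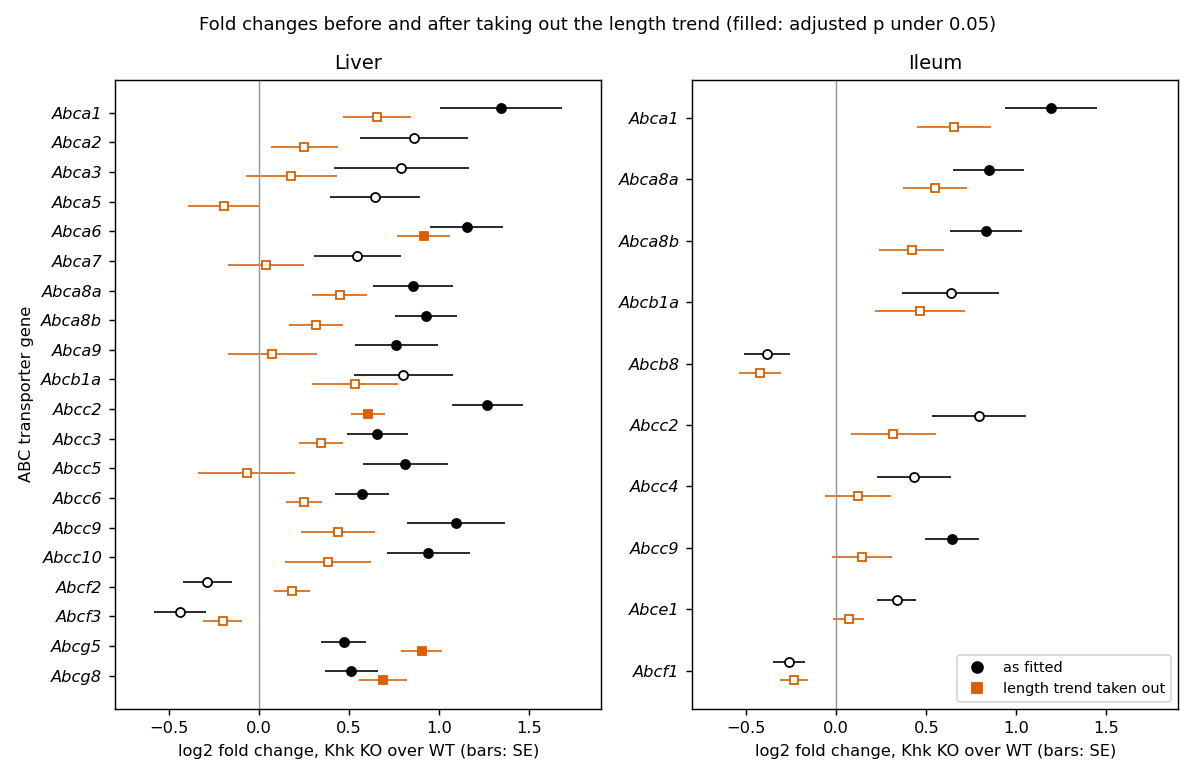
Log2 fold change of 20 ABC transporter genes in liver and 10 in ileum (horizontal axis, bars are SE), as fitted (black circles) and after removal of the length trend (orange squares). Filled symbols have an adjusted p under 0.05; in liver 4 genes keep a filled square, and in ileum none does.

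In levels per length, the liver members spread widely. By the authors' FPKM in WT liver, Abcc3 had 82.4 ± 18.4 (SD, n = 4) and Abcc2 81.0 ± 22.4, which did not differ beyond their spread. Abcg5 (47.2 ± 4.33), Abca6 (44.1 ± 13.6), Abcc6 (43.8 ± 7.45) and Abcg8 (40.8 ± 4.53) followed, again within their spread. Abcf2 (29.5 ± 4.33), Abca8a (23.9 ± 7.82), Abcf3 (22.0 ± 3.46) and Abca1 (13.0 ± 7.69) came next, and the other 11 liver members were under 10 FPKM, with Abca14 lowest at 0.0662. In Khk KO liver the order began with Abcc2 at 190 ± 12, then Abcc3 at 126 ± 5.96 and Abca6 at 95.4 ± 3.89.

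In ileum, too, the ABC transporter genes that the table held were mostly higher in Khk KO, with 9 of 11 tested log2 fold changes above 0. EdgeR called 4 of the 12 members higher, Abca1, Abca8a, Abca8b and Abcc9, and 0 lower, where 13.9% of all ileum genes were called, 7.5% higher. Of the 5187 genes in the table itself it called 42.8%, against 33.3% of the 12 members. Over all ileum genes edgeR called 1202 higher and 1019 lower, and 1045 higher and 540 lower with the deposited size factors in place of TMM. By the adjusted p of the authors' deposited table, higher levels were called for 5 members and lower levels for 1, against 8.76% and 6.86% of all ileum genes, 15.6% together. Over annotated genes the shares it called were near each other, at 12% of the ABC genes, 10.6% of all protein-coding genes and 11.7% of those in the ABC length range. The genotypes did not overlap for 5 of 12, against 66.8% of the table's genes. The median log2 fold change of the 11 tested members was 0.64, against -0.29 for 4364 protein-coding genes and 0.43 for the medians of the length neighbours. Member by member, the difference from the neighbours had a median of 0.0589, and 4 of the 11 lay above their neighbours' upper quartile and 0 below the lower quartile.

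Abca1 had 603, 576, 666 and 469 normalised counts in Khk KO ileum and 137, 233, 309 and 322 in WT. The genotypes were far apart, and Abca1 rose by 1.19 ± 0.25 (SE, log2; edgeR adjusted p = 0.0158), against a median of 0.61 for its neighbours in length. Abca8a had 358, 316, 263 and 401 in Khk KO and 144, 194, 217 and 188 in WT, and rose by 0.85 ± 0.20 (SE; adjusted p = 0.0212). Abca8b had 145, 185, 189 and 184 in Khk KO and 83.3, 87.1, 118 and 105 in WT, and rose by 0.83 ± 0.20 (SE; adjusted p = 0.0240). Abcc9 had 1050.3, 1019, 910.2 and 1091 in Khk KO and 915, 490.5, 636 and 609 in WT. WT replicate 1 of Abcc9 reached the lowest Khk KO library, and the gene rose by 0.64 ± 0.15 (SE; adjusted p = 0.0224). Neighbours in length had medians of 0.43 for Abca8a, 0.52 for Abca8b and 0.58 for Abcc9.

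The fibroblast marker Pdgfra, 1 of 8 on the fibroblast and stellate list in the ileum table, rose beside these genes, with 1470 to 1940 normalised counts in Khk KO and 898 to 1060 in WT, and was at 0.20 after removal of the length trend (adjusted p = 0.784). Epithelial markers fell: 1 of 3 enterocyte markers in the table (Fabp2), 2 of 3 goblet markers (Zg16 and Tff3), the Paneth marker Lyz1, and Krt19. The summed enterocyte markers were 16400 to 24700 normalised counts in Khk KO and 29500 to 53600 in WT, and the goblet markers 76100 to 109000 and 116000 to 141000. None of these 5 was called after removal of the length trend, whereas the goblet mucin gene Muc2 then was, at -0.77 (adjusted p = 0.0112). No smooth muscle marker was in that table, and the part of these cells in the ABC results was not tested. With the length trend taken out, 0 of the 12 ileum members were called, where 2.97% of all ileum genes were, and Abca1 was at 0.65 ± 0.20 (SE; adjusted p = 0.152). With the GC trend taken out 1 was called, Abca1, where 5.83% of all ileum genes were, or 935 of the table's 5187.

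Of the exporters, Abcc2 had 1517, 1856, 2801 and 2279.7 normalised counts in Khk KO ileum and 979.6, 799.5, 1913 and 1158 in WT, and overlapped in WT replicate 3. Its log2 difference was 0.79 ± 0.26 (SE), called by the authors' deposited table (adjusted p = 0.0257) and not by edgeR (adjusted p = 0.0675). Abcb1a was the most abundant member of the ileum at 138 ± 38.2 FPKM in Khk KO and 87.9 ± 34.1 in WT (SD, n = 4). Its replicate 3 was highest in both genotypes, at 21543 and 15097 normalised counts, and its 0.64 ± 0.27 (SE, log2) did not pass (edgeR adjusted p = 0.141). Abcc4, an exporter of cyclic nucleotides and bile acids, had 254 to 331 normalised counts in Khk KO and 152 to 262 in WT, with 0.43 ± 0.21 (SE; edgeR adjusted p = 0.211).

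Abcb8, whose product has been tied to mitochondrial iron export, was in the ileum table alone. Abcb8 had 718, 689, 794.5 and 719.8 normalised counts in Khk KO and 793, 1008, 1036 and 968 in WT, overlapping by WT replicate 1 alone.

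Abcb8 had a log2 fold change of -0.39 ± 0.13 (SE), a call of the authors' deposited table (adjusted p = 0.0489) that edgeR did not make (adjusted p = 0.0701). Its 200 neighbours in length had a median of 0.25 and quartiles of -0.42 and 0.51, so its value lay between those quartiles. With the length trend taken out Abcb8 was at -0.42 ± 0.12 (SE; adjusted p = 0.0877). With the GC trend taken out it was 0.03. Of 12 iron-sulfur and haem partners chosen beside the mitochondrial ABC transporters, 5 were in the ileum table. EdgeR called 1 lower and 0 higher, where 6.36% of all ileum genes and 19.6% of the table's genes were called lower. The 1 was Iscu, the scaffold of iron-sulfur assembly, named after its values were seen (log2 fold change -0.52 ± 0.16, SE; edgeR adjusted p = 0.0481), and it was at -0.07 after removal of the length trend. That fit called 2 other partners lower, Ciapin1 at -0.94 (adjusted p = 0.00758) and Alas1, the first enzyme of haem synthesis, at -0.64 (adjusted p = 0.0296), also named after their values were seen. The same fit called 1.52% of all ileum genes lower, which were 244 of the table's 5187.

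The soluble members of the ileum did not pass in edgeR. Abce1, which splits ribosomes for recycling, had 1342, 1320.5, 1382 and 1209 normalised counts in Khk KO and 1060.4, 957.6, 989.6 and 1171 in WT. The groups were separate, with a log2 difference of 0.33 ± 0.11 (SE; adjusted p = 0.0591). Abcf1, which acts with eIF2 in translation initiation, had 1989, 2112, 2328 and 2283 in Khk KO and 2933, 2609.5, 2531 and 2435 in WT, also separate, with -0.26 ± 0.09 (SE; adjusted p = 0.0676). Abca13 was near the floor, with 0 to 29.5 normalised counts in Khk KO and 0 to 4.14 in WT, had no adjusted p from the authors and was not tested.

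**Figure D4:**
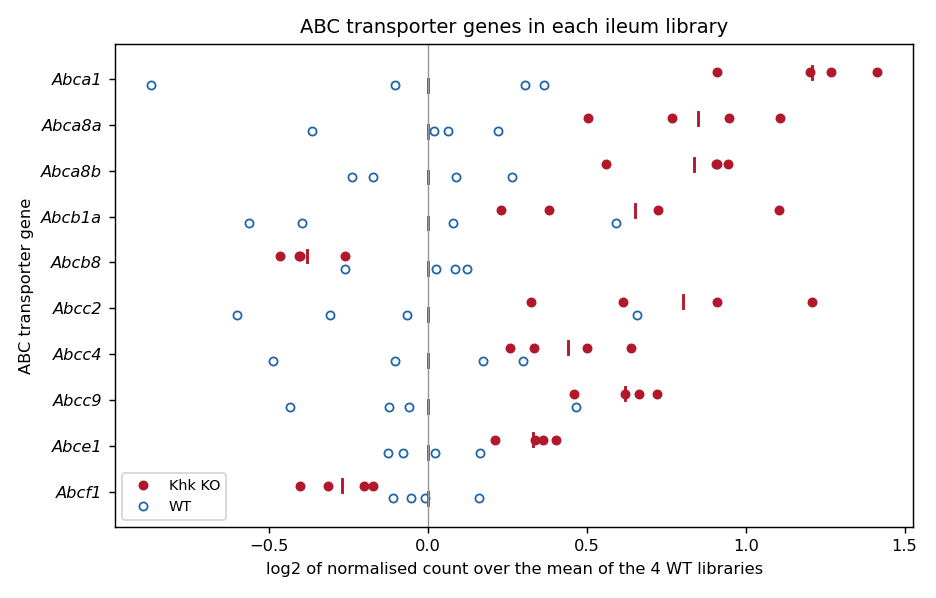
Normalised counts of 10 ABC transporter genes in each ileum library, as log2 of the count over the mean of the 4 WT libraries (horizontal axis), with one line per gene. Filled red points are Khk KO, open blue points WT and short bars the group means; Abca1, Abca8a, Abca8b, Abce1 and Abcf1 show no overlap between the genotypes.

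Single libraries decided the ileum count too. Without Khk KO replicate 1 or WT replicate 2 edgeR called 0 members, and without Khk KO replicate 2 or Khk KO replicate 4 it called 1, with 4.09%, 6.04%, 5.16% and 5.80% of all ileum genes called. Without WT replicate 1 it called 5 higher and 2 lower, with 18.2% of all ileum genes.

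The jejunum table held 3 members, all higher in every Khk KO library than in every WT library, as were 33.0% of that table's genes (56.0% did not overlap in either direction). Abcc2 had 15187, 15636, 13487 and 18434 normalised counts in Khk KO and 6783, 9468, 10396 and 8526 in WT. Abca1 had 1509, 1804, 1847 and 1538 in Khk KO and 1163, 754, 1109.6 and 660.4 in WT. The authors' deposited table called both, Abcc2 with an adjusted p of 0.00189 and Abca1 with 0.0175, where it called 0.759% of all jejunum genes, 0.536% higher.

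EdgeR called 0 of the 3, where it called 0.0101% of all jejunum genes. The log2 differences were 0.82 ± 0.17 (SE) for Abcc2 and 0.87 ± 0.18 (SE) for Abca1, each with an adjusted p of 0.237, and the unadjusted p was under 0.05 for all 3. DESeq2's Wald test with the same adjustment called Abcc2 and Abca1. Both lay above the upper quartile of their neighbours in length, whose medians were 0.46 and 0.47. Abca3 had 786 to 838 normalised counts in Khk KO and 501 to 687 in WT, a log2 difference of 0.36 ± 0.15 (SE; adjusted p = 0.259) beside a neighbours' median of 0.46, and was at -0.01 with the length trend taken out.

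The duodenum table held Abca8a alone, and there it was lower in Khk KO. Its normalised counts were 109.8, 90.7, 107 and 94.3 in Khk KO and 146, 119.8, 129 and 131 in WT, so that every Khk KO library was below every WT library, as were 26.0% of that table's genes (45.9% did not overlap in either direction). The authors' deposited table did not call it (log2 fold change -0.39, adjusted p = 0.505), and it called 0.224% of all duodenum genes. EdgeR gave -0.24 ± 0.15 (SE; adjusted p = 1), where 0.0064% of all duodenum genes were called. From TMM to the deposited size factors the log2 fold changes of this organ shifted by a median of -0.148, and Abca8a was negative under both. Its neighbours in length had a median of 0.44. After removal of the length trend it was -0.56 ± 0.15 (SE; adjusted p = 0.747), where 0.0128% of all duodenum genes were called.

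Where liver and ileum tables shared a member, the genotype effects were compared directly in one edgeR model over 2834 genes. Of the 6 shared members, 0 differed, at an unadjusted p under 0.05 as well, and 0.423% of the shared genes did. The liver minus ileum difference was 0.15 ± 0.45 (SE, log2) for Abca1, 0.08 ± 0.25 for Abca8b, 0.46 ± 0.35 for Abcc2, 0.43 ± 0.32 for Abcc9 and 0.15 ± 0.39 for Abcb1a. For Abca8a it was -0.0035 ± 0.27. These errors leave room for differences of the size of the effects themselves.

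The levels of the shared members also differed between organs. By FPKM, each table normalised on its own, Abcc2 averaged 81.0 ± 22.4 (SD, n = 4) in WT liver, 60.6 ± 9.72 in WT jejunum and 6.82 ± 2.84 in WT ileum, and the first pair overlapped. Abca1 averaged 13.0 ± 7.69 in WT liver, 5.25 ± 1.48 in jejunum and 1.16 ± 0.404 in ileum. Abca8a averaged 23.9 ± 7.82 in WT liver, 1.42 ± 0.257 in ileum and 1.02 ± 0.085 in duodenum. Abcb1a ran the other way, with 1.29 ± 0.361 in WT liver and 87.9 ± 34.1 in WT ileum. Abcc9 averaged 2.19 ± 0.657 in WT liver and 3.78 ± 0.941 in WT ileum.

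**Figure D5:**
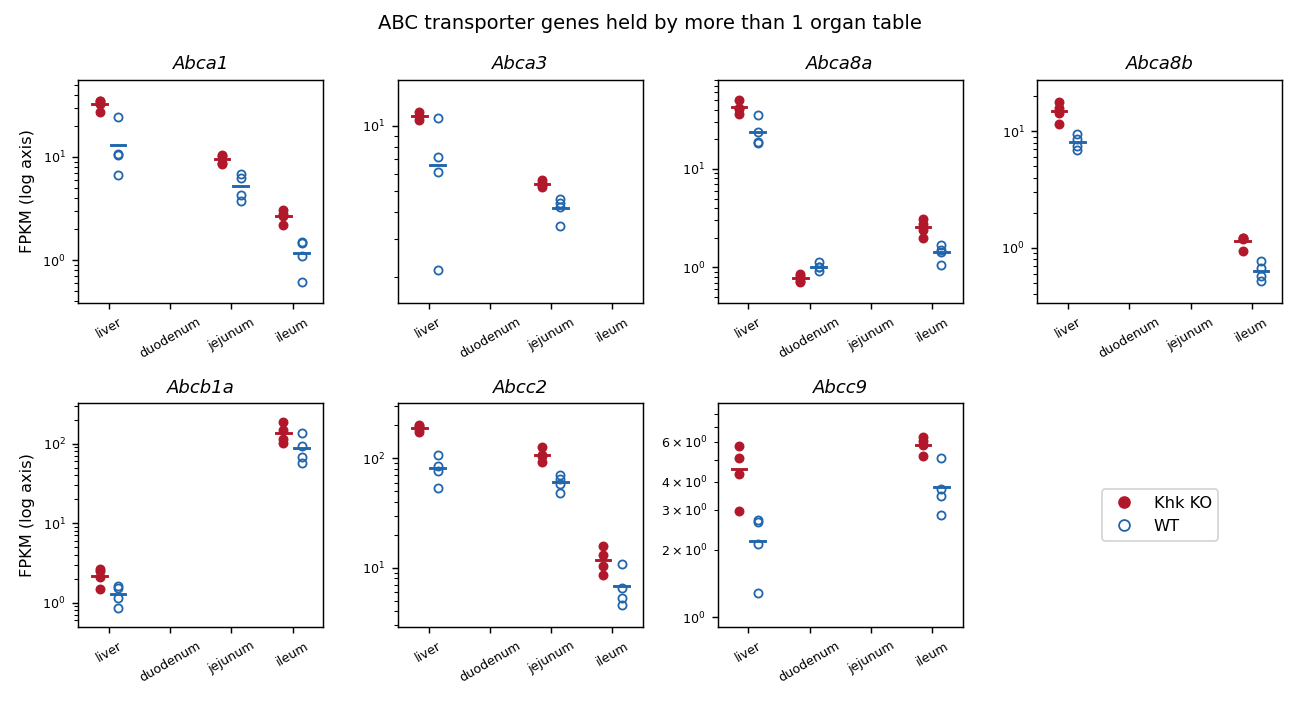
FPKM (vertical log axis) of the 7 ABC transporter genes that more than 1 organ table holds, by organ. Filled red points are the 4 Khk KO libraries, open blue points the 4 WT libraries and bars the group means; an organ without points has no value for that gene in its table. Abcb1a is highest in ileum, whereas Abca1, Abca8a, Abca8b and Abcc2 are highest in liver.

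Other genes of sterol and bile handling were called in both directions. Of 20 sterol and phospholipid genes chosen as partners, 10 were in the liver table, where 2 rose and 6 fell in edgeR, beside 20.5% higher and 21.4% lower among all genes of that table, with a median log2 fold change of -0.45. Apoe, Apoa1 and Apoa2, the small apolipoproteins of HDL and remnants, fell by 0.56 ± 0.08, 0.75 ± 0.19 and 0.52 ± 0.08 (SE, log2), while Apob, the scaffold of VLDL, rose by 1.27 ± 0.34. Apob is among the longest genes, at 13934 bases, and the 3 others are short. After removal of the length trend Apoe was at -0.03, Apoa1 at -0.05, Apoa2 at 0.23 and Apob at 0.44, none of them called. Of the 10 that fit called 1 higher and 2 lower, where it called 396 of the table's 6375 genes higher and 390 lower.

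In ileum 7 of the 20 were in the table, where 1 rose and 3 fell, beside 23.2% higher and 19.6% lower among all genes of that table. Among them Apoa1 fell by 1.06 ± 0.27 and Npc2, which carries cholesterol out of lysosomes, by 0.41 ± 0.10 (SE, log2), and Apob was the 1 that rose, by 0.64 ± 0.17 (SE, log2). After removal of the length trend Npc2 was at -0.59 (adjusted p = 0.0114), and Apoa1 and Apob were not called. Of the 7 that fit called 0 higher and 2 lower, where it called 232 of the table's 5187 genes higher and 244 lower. Of 17 bile acid genes, 5 were in the liver table. EdgeR called 2 higher, the uptake carrier Slco1a4 and the flippase Atp8b1, and 0 lower, with 0 called once the length trend was out. Among all genes of that table it called 20.5% higher and 21.4% lower. The authors' deposited table called the same 2 higher and 3 lower, Cyp8b1, Slc27a5 and Baat, for which edgeR gave log2 fold changes of -0.79, -0.32 and -0.51. In ileum 4 of the 17 were in the table, where Atp8b1 rose by 0.67 ± 0.13 (SE, log2) and Baat, which conjugates bile acids, fell (log2 fold change -0.72 ± 0.21, SE), neither of them called after removal of the length trend.

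Among 16 transcription factors that act on ABC genes, 5 were in the liver table. EdgeR called 1 of the 5 higher and 1 lower, beside 20.5% higher and 21.4% lower among all genes of that table. Ahr, the dioxin receptor, rose by 1.29 ± 0.21 (SE, log2; edgeR adjusted p = 0.0160) and was at 0.89 with the length trend taken out (adjusted p = 0.0164). Nr1h3, a liver X receptor known as an activator of Abca1, Abcg5 and Abcg8, fell (log2 fold change -0.74 ± 0.16, SE; adjusted p = 0.0206) and was at -0.25 with the trend taken out (adjusted p = 0.311). In ileum 7 of the 16 were in the table, and edgeR called 1 higher and 1 lower. Among all genes of that table it called 23.2% higher and 19.6% lower. Ahr rose there by 0.49 ± 0.13 (SE; adjusted p = 0.0297), without a call once the length trend was out. Keap1, the inhibitor of NRF2, fell (log2 fold change -0.35 ± 0.10, SE; adjusted p = 0.0366) and was at -0.39 with the trend taken out (adjusted p = 0.0381). Of the 7 that fit called 0 higher and 2 lower, where it called 244 of the table's 5187 genes lower.

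Of the 3 family members under other symbols, the 2 called by edgeR are given here, named after their values were seen. Tap1, which carries peptides to MHC class I, had 313 ± 26.2 (SD, n = 4) normalised counts in Khk KO liver and 510 ± 101 in WT. It fell in liver (log2 fold change -0.68 ± 0.17, SE; edgeR adjusted p = 0.0268), and after removal of the length trend it was at -0.98 (adjusted p = 0.0172). Cftr, the chloride channel, had 1446 ± 306 in Khk KO ileum and 956 ± 146 in WT, and rose by 0.59 ± 0.17 (SE, log2; edgeR adjusted p = 0.0412). It was at 0.15 with the length trend taken out.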

How the data were processed

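Per the labels, libraries were made from poly-T-selected RNA with random primers, and strandedness is not settled. Per the submitters' processing notes, HISAT2 2.0.5 and the build GRCm38 (mm10) were used. The counter and the authors' test are not given in the sources used here. Positions equalled GENCODE M21 for 95.7% to 96.5% of genes. The authors deposited, per the file headers, raw read counts, FPKM, a log2 fold change, a p-value and an adjusted p-value per gene, with a normalised signal that is each count over its library's size factor. Every table held only genes with a p-value under 0.05, and an adjusted p of exactly 1 was read as not adjusted.

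Counts were refitted per organ with edgeR 4.0.16 in R 4.3.3 (TMM, filterByExpr, quasi-likelihood test, library sizes implied by FPKM), adjusted over the 18225, 15615, 9881 and 16034 genes that the authors' adjusted p-values imply for liver, duodenum, jejunum and ileum. SE is the size of the log2 fold change divided by the square root of F. DESeq2 1.42.0 was an alternative. The length trend was a lowess curve (span 0.5) per library of log2 deviation on log2 length, fitted where the mean count reached 10 and taken out as an offset with the authors' size factors, and GC content was treated likewise. Promoter sequences are from RefSeq (GRCm38.p6), which matched 22 of the 27 members. Named ABC genes are those called by the authors or by edgeR in at least 1 organ, or held by at least 2 tables, the others being given by values only. For the sterol, bile acid and regulator lists up to 4 called genes with the highest mean are named per organ. Some genes are counted but not reported here by name. The members and lists were chosen with earlier results of these data known, so no pattern among them is independent support.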

Additional observations from a re-analysis of the deposited data

Results flagged for a closer look

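Dixon's criterion at the 95% level was applied to the 4 libraries of each genotype for each member, 74 groups in all, of which chance flags about 1 in 20. It picked out 3 single libraries. Abca9 in liver was 81.8 normalised counts in Khk KO replicate 4, well below the other 3 Khk KO libraries. Abca8b in ileum was 145 normalised counts in Khk KO replicate 1, the lowest of its group by a wide gap. Abca13 in ileum was 4.14 normalised counts in WT replicate 4, while the other 3 WT libraries were listed at 0.

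Abca8a differed in direction between organs. Its normalised count in Khk KO was 0.763 of the WT mean in duodenum, 1.78 times in liver and 1.80 times in ileum, and in each of the 3 organs the genotypes did not overlap. A test of the difference was added after these values had been seen. In edgeR over the 637 genes shared with ileum, the duodenum effect minus the ileum effect was -1.32 ± 0.31 (SE, log2; adjusted p = 0.0920). Over the 742 genes shared with liver, the duodenum effect minus the liver effect was -1.41 ± 0.35 (SE; adjusted p = 0.0522). These fits took their TMM scaling from the shared genes alone and treated the libraries of both organs as independent. The separate organ fits gave Abca8a -0.24 in duodenum, 0.85 in ileum and 0.86 in liver, and the differences between those values are smaller. Before removal of the length trend, 0 of the 637 genes shared with ileum and 1.48% of the 742 shared with liver were called. With the length trend taken out, on the authors' size factors, the values were -1.11 ± 0.24 (adjusted p = 0.0495) and -1.01 ± 0.21 (adjusted p = 0.0194). Abca8a was picked for its opposite directions among genes selected in each organ, so these p-values are no independent support. The duodenum libraries carry names of another numbering series, so organ and library series cannot be told apart.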

How the results depend on the processing

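In liver, 13 members were called higher; taking the length trend out gave 4, and leaving out 1 library gave 0 to 16. The 0 called lower became 1 with DESeq2 and 1 when adjusted over the genes tested, and 0 to 2 without 1 library. In ileum, 4 higher became 7 with DESeq2, 8 when adjusted over the genes tested, 0 with the length trend and 1 with the GC trend taken out, and 0 to 5 without 1 library. The 0 called lower there became 2 with DESeq2, 2 when adjusted over the genes tested, and 0 to 2 without 1 library. In jejunum, 0 higher became 2 with DESeq2 and 2 when adjusted over the genes tested. Over all genes, calls in liver went from 2675 to 4411 with DESeq2, 5199 when adjusted over the genes tested and 786 with the length trend taken out. In ileum they went from 2221 to 3520, 4494 and 476, and to 935 with the GC trend taken out. In jejunum 1 became 347 and 1175 under the first pair, and in duodenum 37 and 4.

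With the length trend taken out the sign changed for Abca5 (-0.20), Abcc5 (-0.070) and Abcf2 (0.18) in liver and Abca3 (-0.014) in jejunum, and with the GC trend for Abcb8 (0.033), Abce1 (-0.21) and Abcf1 (0.12) in ileum. The cause was not tested. Since the tables lack genes with a larger p-value, the refit learns the spread from selected genes.

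The labels do not say whether replicate numbers pair the libraries. Within an organ, same-numbered Khk KO and WT deviations correlated from -0.269 to 0.312, which cannot settle it, since paired libraries need not correlate. A replicate block gave 9 members higher in liver, with 2156 calls over all genes (11.8%), and 5 in ileum, with 1202 (7.5%). It gave 0 members in jejunum and duodenum.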
